A study of Mus musculus with 18 samples.

Results

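The transcription factors that set the identity of conventional dendritic cells (cDC) were followed through 6 groups of mouse splenic cDC, with and without the metalloprotease ADAM10. The set was a list of 10 genes given by name, Irf8, Batf3, Id2, Nfil3, Irf4, Klf4, Zeb2, Relb, Spi1 and Zbtb46, out of 24614 genes in the deposited tables. All 10 were found, and all 10 passed the filter on low counts that left 13381 genes for testing. The 18 RNA-seq libraries came from C57BL/6 mouse spleen, from wild-type (WT) and ADAM10 knockout (KO) animals, with 3 libraries in each of the 6 groups. Cells were enriched for CD11c on magnetic columns and then sorted as live CD11c+ MHCII+ cells into cDC1, which are CD8+, and into CD4+ and CD4-CD8- cDC2, the last of which the labels name CD4-. The age of the mice, the way in which ADAM10 was removed and the cells in which it was removed are not given in the sources used here. Nothing in the labels says whether the libraries of a group are separate animals, and p-values here rest on the spread among libraries, which may be technical.

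cDC1 and cDC2 are the 2 lineages of conventional dendritic cells, which take up antigen and present it to T cells. IRF8 and BATF3 are needed for cDC1, ID2 holds E proteins in check in cDC1, and NFIL3 acts early in their precursors. IRF4, KLF4, ZEB2 and RELB, an NF-kB subunit, have roles in cDC2, and the splenic CD4+ cDC2 also depend on Notch signals, for which ADAM10 cleaves the receptor. PU.1, the product of Spi1, acts in all dendritic cells, and ZBTB46 marks committed cDC. In the precursor, ZEB2 and ID2 oppose each other.

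Library totals ran from 12358884 to 19557469 estimated counts. Adam10 itself was lower in all KO libraries, at 41.6 to 45.9 CPM (counts scaled to library size) against 80.5 to 129.5 CPM in WT among CD4+ cells, and it was not at 0. Its log2 fold changes were -1.18, -1.25 and -1.15 in CD4+, CD4-CD8- and CD8+ cells. The sort labels matched the marker genes: 11 cDC1 markers summed to 1694 to 1859 TPM (transcript abundance per length, scaled to a fixed library sum) in WT CD8+ libraries and to at most 312 TPM in the WT cDC2 libraries, and 8 cDC2 markers summed to 103 to 178 TPM in WT CD8+ and to 783 to 1377 TPM in WT cDC2. Natural killer (NK) cell markers stood apart in WT CD4-CD8- cells, with 8 genes summing to 181 to 405 TPM against 61.1 to 88.8 TPM in KO CD4-CD8- cells and at most 31.9 TPM in CD4+ cells. T cell markers followed the same course there, at 135 to 256 TPM in WT and 9.53 to 34.9 TPM in KO.

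The 10 genes are protein-coding and lie on 7 chromosomes, with these spans on GRCm38: Irf8 chr8:120736358-120756694, Batf3 chr1:191097847-191108945, Id2 chr12:25093799-25097140, Nfil3 chr13:52967209-52981073, Irf4 chr13:30749226-30766976, Klf4 chr4:55527143-55532466, Zeb2 chr2:44983632-45117395, Relb chr7:19606217-19629438, Spi1 chr2:91082390-91115756 and Zbtb46 chr2:181387762-181459426.

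The regulatory sequence before the start site is shown for the 4 genes whose levels moved furthest between populations or genotypes, Irf8, Id2, Irf4 and Zeb2. Each is the 250 bases directly before a RefSeq start site (GRCm38.p6), 5′ to 3′ on the gene's strand, in lower case, with matches to 7 short motifs in capitals. For Irf8, Id2 and Zeb2 the windows lie before the transcripts that hold most of the counts in the group means, Irf8-201, Id2-201 and Zeb2-202. The exception is KO CD8+ cells, where Zeb2-202 held 36.3% of the Zeb2 counts in the mean and 0% in replicate 1. The windows are chr8:120736108-120736357 on the plus strand for Irf8, chr12:25096093-25096342 on the minus strand for Id2, chr13:30748983-30749232 on the plus strand for Irf4 and chr2:45113280-45113529 on the minus strand for Zeb2.
Irf8: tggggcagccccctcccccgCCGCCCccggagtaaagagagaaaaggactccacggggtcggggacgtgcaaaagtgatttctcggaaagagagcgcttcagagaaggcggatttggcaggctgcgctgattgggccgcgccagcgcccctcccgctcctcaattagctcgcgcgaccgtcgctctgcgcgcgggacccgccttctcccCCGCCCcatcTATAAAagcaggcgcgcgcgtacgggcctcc
Id2: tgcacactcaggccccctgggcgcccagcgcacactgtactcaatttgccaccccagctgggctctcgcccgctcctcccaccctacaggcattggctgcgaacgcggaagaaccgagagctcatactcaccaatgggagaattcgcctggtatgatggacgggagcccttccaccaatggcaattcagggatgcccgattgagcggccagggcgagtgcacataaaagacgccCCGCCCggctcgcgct
Irf4: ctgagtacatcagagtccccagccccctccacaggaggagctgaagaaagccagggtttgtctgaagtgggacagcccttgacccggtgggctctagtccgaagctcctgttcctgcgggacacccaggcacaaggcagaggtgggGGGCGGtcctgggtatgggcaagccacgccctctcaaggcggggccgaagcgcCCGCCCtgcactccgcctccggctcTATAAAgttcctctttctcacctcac
Zeb2: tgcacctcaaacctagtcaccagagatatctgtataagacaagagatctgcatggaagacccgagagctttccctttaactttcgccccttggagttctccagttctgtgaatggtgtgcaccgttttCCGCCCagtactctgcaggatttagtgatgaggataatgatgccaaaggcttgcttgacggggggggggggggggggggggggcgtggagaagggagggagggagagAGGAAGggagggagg

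The motifs were searched on both strands. They were the RBPJ core TGGGAA, the ZEB-type E-box CACCTG, the PU.1 core AGGAAG, the AP-1 site TGANTCA, the IRF repeat GAAANNGAA, the TATA box TATAAA and the GC box GGGCGG. Among 32851 RefSeq windows of this length, 21.6% held the RBPJ core, 17.2% the E-box, 29.5% the PU.1 core, 6.7% the AP-1 site, 7.1% the IRF repeat, 12.4% the TATA box and 32.7% the GC box. The Irf8 and Irf4 windows each held 1 TATA box, at positions -31 and -26 from the start, and 2 GC boxes. The Id2 window held 1 GC box, and the Zeb2 window held 1 GC box and 1 PU.1 core at position -15. In the 12 windows found for 8 of the 10 genes, the RBPJ core occurred once, before the second start site of Irf8, and the IRF repeat did not occur. AP-1 matches lay in the fourth Zeb2 window, with 2, and in the Zbtb46 window, with 1 at position -61. A match says only that these letters are present.

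Per unit of transcript length, the genes fell into a different order in cDC2 and cDC1. Spi1 had the highest TPM of the 10 in all 4 cDC2 groups, with 332 TPM in WT CD4+ and 322 TPM in WT CD4-CD8- cells, and Irf8 had the highest in CD8+ cells, with 478 TPM in WT and 502 TPM in KO. In WT CD4+ cells Relb (107 TPM) and Id2 (95.1 TPM) followed, and the libraries of these 2 overlapped. Zeb2, Batf3, Irf8, Klf4 and Irf4 came next, between 35.9 and 19 TPM, with each of these 5 overlapping its neighbours among them. Zbtb46 (10.8 TPM) and Nfil3 (8.93 TPM) were lowest and overlapped each other. In WT CD8+ cells Irf8, Id2 (258 TPM), Spi1 (221 TPM), Batf3 (42.4 TPM) and Relb (33.6 TPM) formed a descending order with no overlap between neighbours. In KO CD8+ cells Irf4 had 0.762, 0.988 and 1.47 TPM, a mean at the 26.3rd percentile of the genes tested, and Zeb2 overlapped it with 0.314, 0.48 and 6.77 TPM.

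Across the 6 group means, CPM ran over a 30.7-fold range for Zeb2, 23.9-fold for Irf8, 13.9-fold for Irf4 and 13.3-fold for Id2. The range was 6.88-fold for Relb and 5.41-fold for Klf4, and 1.68-fold to 2.33-fold for Nfil3, Batf3, Zbtb46 and Spi1.

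The populations were compared first in WT cells, to see how far each factor separated cDC2 from cDC1. Levels are given below as CPM after scaling of library sizes, and changes as log2 fold changes with their standard error (SE). Of the 10 genes, 8 differed between WT CD4+ and CD8+ cells at an adjusted p under 0.05, 5 higher and 3 lower in CD4+, where 45.6% of all genes tested differed. Between WT CD4-CD8- and CD8+ cells 8 differed, 4 in each direction, against 42.9% of all genes. Between the 2 WT cDC2 populations 4 differed, 3 higher and 1 lower in CD4+, against 16.7% of all genes. The list was chosen for known roles in these lineages, so shares above the background describe that choice. Same-numbered libraries of a genotype deviated together from their group means, except between the KO cDC2 populations, and the value with libraries paired in this way is given below where it changes a call.

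Irf8 showed the widest span of the 10 in WT cells. It stood at 2453, 3024 and 2479 CPM in WT CD8+, at 472, 353 and 418 CPM in WT CD4-CD8- and at 155, 129 and 140.3 CPM in WT CD4+ libraries. The 3 populations did not overlap. Irf8 was 18.7-fold lower in CD4+ than in CD8+ cells (log2 -4.23, SE 0.16, adjusted p = 6.45e-12) and 2.93-fold lower in CD4+ than in CD4-CD8- cells (log2 -1.55, SE 0.15, adjusted p = 2.15e-06). The other cDC1 factors spanned less. Id2 was 2.76-fold lower in CD4+ than in CD8+ cells (adjusted p = 2e-07) and Batf3 1.28-fold lower, with an adjusted p of 0.0936 that fell to 0.0133 when libraries of the same genotype and number were paired. Nfil3 did not differ at the threshold between any WT populations, with adjusted p-values of 0.493, 0.572 and 0.957.

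Among the cDC2 factors, Klf4, Zeb2, Relb and Irf4 were all higher in both WT cDC2 populations than in WT CD8+ cells. In CD4+ against CD8+ cells Klf4 was 3.36-fold higher (log2 1.75, SE 0.25), Zeb2 3.05-fold (1.61, SE 0.23), Relb 3.01-fold (1.59, SE 0.14) and Irf4 2.7-fold (1.44, SE 0.17), with adjusted p-values from 7.39e-08 to 2.24e-05. With the length offset Zeb2 missed the threshold against CD8+ cells in both, at 1.52 in CD4+ (adjusted p = 0.0825) and 1.69 in CD4-CD8- cells (adjusted p = 0.06), as it did in CD4+ cells on log2(TPM + 0.1) (adjusted p = 0.104). Irf4 and Relb were also higher in CD4+ than in CD4-CD8- cells, by 0.61 and 0.45 on the log2 scale (adjusted p = 0.0166 and 0.0293). The Irf4 call was lost without WT CD4+ replicate 1 (0.51, adjusted p = 0.0841), WT CD4- replicate 1 (0.58, adjusted p = 0.0665) or WT CD4- replicate 2 (0.56, adjusted p = 0.0633). On log2(TPM + 1) the Irf4 and Relb differences were 0.54 and 0.23 (adjusted p = 0.077 and 0.254). The Relb call was lost without WT CD4+ replicate 1 or 2 (adjusted p = 0.0976 and 0.0858) and without WT CD4- replicate 1 or 3 (adjusted p = 0.0926 and 0.125).

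Of the factors shared by both lineages, Spi1 was 1.68-fold higher in WT CD4+ than in WT CD8+ cells (log2 0.75, SE 0.17, adjusted p = 0.00142). In CD4-CD8- cells it was 1.33-fold higher, with an adjusted p of 0.0542, and of 0.0238 with the pairing. Zbtb46 ran the other way and was lower in CD4-CD8- than in CD8+ cells by 0.50 on the log2 scale (SE 0.07, adjusted p = 3.75e-05). It was higher in CD4+ than in CD4-CD8- cells (log2 0.32, SE 0.07, adjusted p = 0.00668). On log2(TPM + 1) these 2 differences were -0.16 (adjusted p = 0.243) and 0.02 (adjusted p = 0.927), and the second was also lost on TMM-scaled TPM (0.19, adjusted p = 0.179) and with an offset for transcript length (0.21, adjusted p = 0.139). Between CD4+ and CD8+ cells its difference was -0.19 with an adjusted p of 0.0479, which rose to 0.0611 with the pairing and lay above 0.05 on leaving out any 1 of the 6 libraries (0.0669 to 0.164).

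**Figure D1:**
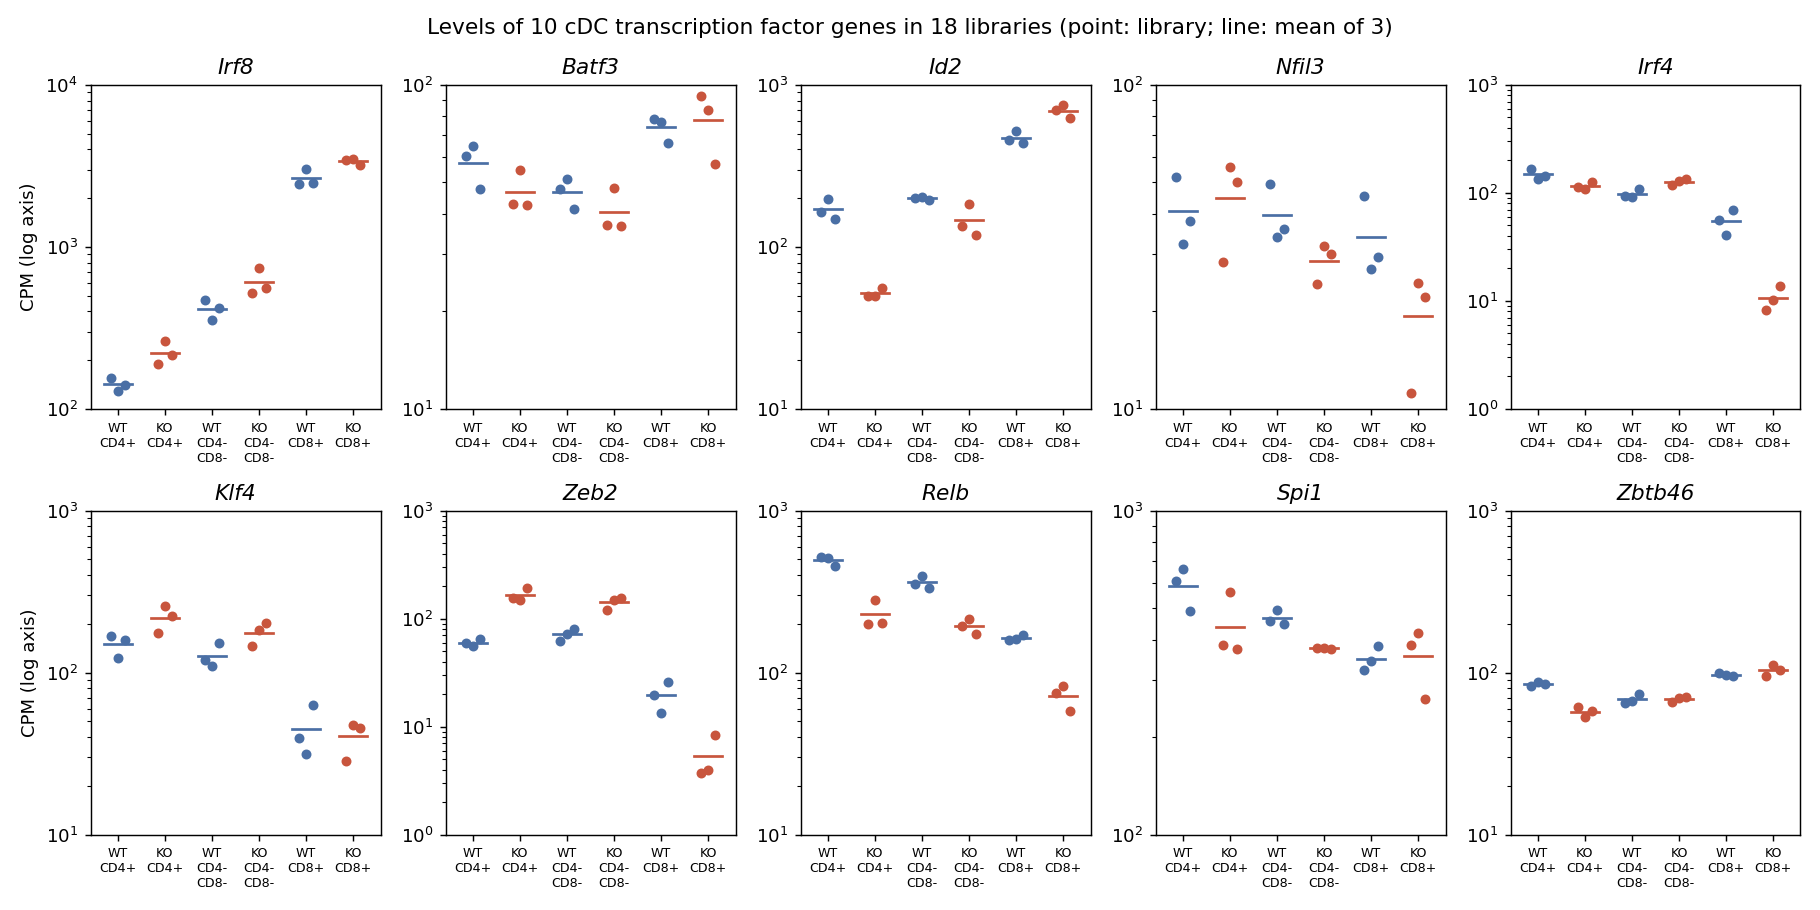
Levels of the 10 genes in each of the 18 libraries, as CPM on a log axis, by genotype (WT blue, KO red) and population; points are libraries and lines the means of 3. Irf8 and Id2 were highest in CD8+ cells, and Irf4, Zeb2 and Relb were lowest in KO CD8+ cells, where Irf4 lay between 8.22 and 13.8 CPM.

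Loss of ADAM10 was then examined within each population. In CD4+ cells 5 of the 10 genes passed the test, with Irf8 and Zeb2 higher and Id2, Relb and Zbtb46 lower in KO. Over all genes tested 35.1% passed, 18.5% higher and 16.6% lower. In CD4-CD8- cells 4 passed, with Irf8 and Zeb2 higher and Id2 and Relb lower, against 25.9% of all genes, 14.6% higher and 11.3% lower. In CD8+ cells 4 passed, with Id2 higher and Irf4, Zeb2 and Relb lower, against 15.7% of all genes, 7.01% higher and 8.68% lower. The median log2 change of the 10 genes was -0.33, -0.10 and -0.06 in the 3 populations, where all genes had medians of 0.02, 0.02 and 0.00. The median size of the change, without its sign, was 0.56, 0.46 and 0.45 for the 10 genes and 0.30, 0.26 and 0.20 for all genes. In bulk samples such as these, fewer cells of a type and less RNA per cell cannot be told apart.

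**Figure D2:**
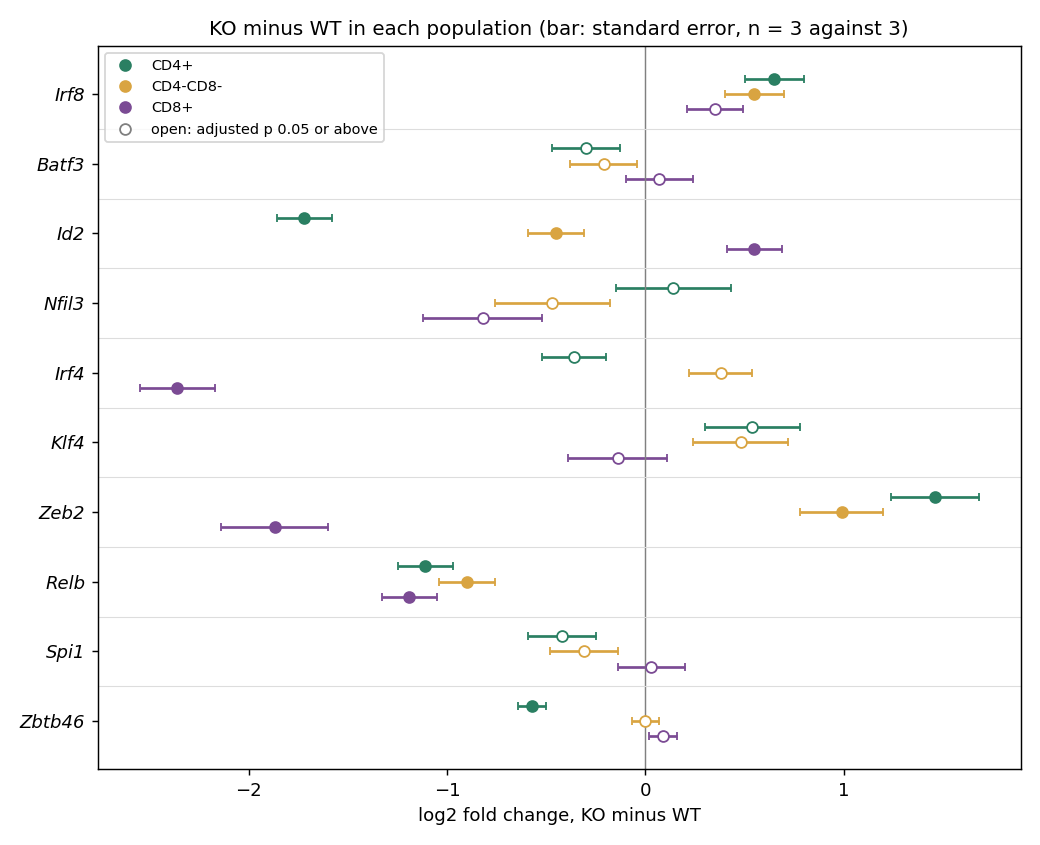
Log2 fold change of each gene in KO against WT cells in the 3 populations, with the standard error as bars (3 libraries against 3); filled points passed an adjusted p of 0.05. Relb lay left of 0 in all 3 populations, while Zeb2 and Id2 had opposite signs in CD4+ and CD8+ cells.

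Irf8, the factor that specifies cDC1, was higher in KO cDC2. In CD4+ cells it rose from 155, 129 and 140.3 CPM in WT to 189.7, 262 and 216 CPM in KO (log2 0.65, SE 0.15, adjusted p = 0.00205). In CD4-CD8- cells it rose from 472, 353 and 418 CPM to 517, 742 and 559 CPM (log2 0.55, SE 0.15, adjusted p = 0.00989). In neither did the libraries overlap in CPM, but in TPM they overlapped in both. The CD4-CD8- call was lost without WT replicate 2 (0.42, adjusted p = 0.0685) or KO replicate 2 (0.38, adjusted p = 0.0681). On deposited TPM, with no further scaling, the 2 differences were 0.28 and 0.19 with adjusted p-values of 0.0959 and 0.231. In CD8+ cells the WT libraries given above compare with 3443, 3510.2 and 3213 CPM in KO, a log2 difference of 0.35 with an adjusted p of 0.116, with every KO library above every WT library in CPM but not in TPM. The fit on the CD8+ libraries alone gave 0.36 with an adjusted p of 0.044. No difference between the 3 changes passed the test (0.11 to 0.30 on the log2 scale, adjusted p = 0.343 to 0.878). KO CD4+ cells, with a mean of 223 CPM, were below WT CD4-CD8- cells, with 414 CPM.

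Beside the rises of Irf8, 6 of the 11 cDC1 markers were higher and 2 lower in KO CD4+ cells, and 7 higher and 1 lower in KO CD4-CD8- cells. Their summed level was 135 to 151 TPM in KO and 153 to 205 TPM in WT CD4+ cells, and 332 to 437 TPM in KO and 253 to 312 TPM in WT CD4-CD8- cells. Of 7 markers of plasmacytoid dendritic cells, which also express Irf8, 4 were higher and 0 lower in both, with sums of 233 to 286 TPM in KO and 162 to 193 TPM in WT CD4+ cells, and of 264 to 309 TPM and 187 to 221 TPM in CD4-CD8- cells. No marker of either list was at 0 in all 3 libraries of a group. The part of such cells in the Irf8 difference was not tested.

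Id2, the inhibitor of E proteins, moved in opposite directions in cDC2 and cDC1. In CD4+ cells it fell from 164, 198 and 149.7 CPM in WT to 49.9, 50 and 55.8 CPM in KO, a 3.29-fold drop (log2 -1.72, SE 0.14, adjusted p = 8.86e-08). In CD8+ cells it rose from 457, 519 and 439.8 CPM to 699, 754 and 623 CPM (log2 0.55, SE 0.14, adjusted p = 0.00981). The libraries of the 2 genotypes were separate in both. On deposited TPM the CD8+ rise was 0.35, with an adjusted p of 0.0926. NK markers summed to 33.2 to 45.1 TPM in KO and 41.3 to 74.7 TPM in WT CD8+ cells.

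In CD4-CD8- cells Id2 was lower in KO, at 135, 185 and 119 CPM against 201, 204 and 194 CPM (log2 -0.45, SE 0.14, adjusted p = 0.0233). That call was lost without KO replicate 1 (-0.39, adjusted p = 0.089) or KO replicate 3 (-0.32, adjusted p = 0.123). Of 8 NK cell markers 7 were lower in these KO cells, and all 8 T cell markers, with the summed levels given above. In CD4+ cells the NK markers summed to 11.6 to 14.2 TPM in WT and 21.5 to 31.9 TPM in KO. The T cell markers summed there to 3.58 to 5.86 TPM in WT and 5.59 to 20.7 TPM in KO. Both cell types transcribe Id2, and the part of these cells in the Id2 differences was not tested.

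Batf3 and Nfil3 did not pass the test in any population. Batf3, the AP-1 factor that sustains Irf8 in cDC1, stood in CD8+ libraries at 78.7, 76.6 and 66.3 CPM (WT) and at 92.4, 83.9 and 57.1 CPM (KO), which overlapped. Its log2 differences were -0.30, -0.21 and 0.07 in CD4+, CD4-CD8- and CD8+ cells, with adjusted p-values of 0.183, 0.42 and 0.831. Nfil3, a bZIP factor, ran from 28.5 to 56 CPM among the KO CD4+ libraries. Among CD8+ libraries WT had 45.3, 27.1 and 29.5 CPM, and KO 11.2, 24.4 and 22.1 CPM, without overlap, a log2 difference of -0.82 with an adjusted p of 0.0767 in edgeR and 0.0257 in DESeq2.

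Irf4, a factor of cDC2, passed the test in CD8+ cells alone. There it fell from 55.9, 40.4 and 69 CPM in WT to 8.22, 10.1 and 13.8 CPM in KO, a 5.13-fold drop (log2 -2.36, SE 0.19, adjusted p = 3.13e-07). The WT CD4+ libraries had 168, 134 and 145 CPM and the KO ones 114, 109 and 126 CPM. Among CD4-CD8- libraries WT had 94, 90.9 and 108 CPM, and KO 118, 128 and 135 CPM. In CPM the CD4+ libraries were all lower in KO and the CD4-CD8- libraries all higher, while in TPM the CD4-CD8- libraries overlapped. The log2 differences of -0.36 and 0.38 missed the threshold (adjusted p = 0.104 and 0.102). In the fits restricted to the libraries of each comparison both passed (adjusted p = 0.0259 and 0.0184). The difference between CD4+ and CD4-CD8- cells was 0.61 in WT and -0.13 in KO (adjusted p = 0.725). The change of that difference, -0.74, had an adjusted p of 0.0996 in edgeR and 0.0461 in DESeq2.

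Zeb2, a repressor of the ZEB family, rose in KO cDC2 and fell in KO cDC1. In CD4+ cells it went from 59.8, 56.3 and 64.4 CPM in WT to 155, 149 and 192 CPM in KO (2.74-fold, log2 1.46, SE 0.22, adjusted p = 5.52e-05). In CD4-CD8- cells it went from 62.1, 71.9 and 80.1 CPM to 120.4, 148 and 157 CPM (1.99-fold, log2 0.99, SE 0.21, adjusted p = 0.00255). In CD8+ cells it fell from 19.7, 13.5 and 25.9 CPM to 3.72, 3.97 and 8.44 CPM (3.64-fold, log2 -1.87, SE 0.27, adjusted p = 0.000129). In CPM no WT library overlapped a KO library of its population. In TPM the CD8+ libraries overlapped, at 6.12 TPM in WT replicate 2 and 6.77 TPM in KO replicate 3.

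The transcript makeup of Zeb2 bears on its TPM. Zeb2-227, a model of 240 bases, took 1.51% of the Zeb2 counts in WT CD4+ cells but 55.9% to 63.6% of the Zeb2 TPM, since TPM divides by length, and Zeb2-202, of 5624 bases, took 66.3% of the counts. Summed over all transcripts Zeb2 had 35.5, 32.3 and 39.9 TPM in WT CD4+ and 59.2, 68.8 and 73.4 TPM in KO CD4+ libraries. Without Zeb2-227 these became 14.6, 14.2 and 14.6 TPM against 28.2, 26.4 and 24.9 TPM. In KO CD8+ cells the same step changed 0.314, 0.48 and 6.77 TPM to 0.314, 0.48 and 1.17 TPM. In tests on TPM and with an offset for transcript length, the 2 cDC2 differences were 0.62 to 1.05 on the log2 scale and missed the threshold (adjusted p = 0.158 to 0.556); the part of this model in that was not tested. An antisense gene, Zeb2os, shares 653 exonic bases with Zeb2 and was at 0 counts in every library.

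Klf4, needed for a subset of cDC2, was higher in the mean in both KO cDC2 populations but did not pass. The CD4+ libraries lay at 168, 123 and 159.7 CPM (WT) and at 176, 258 and 223 CPM (KO), without overlap (log2 0.54, SE 0.24, adjusted p = 0.0867). In CD4-CD8- cells the log2 difference was 0.48 (adjusted p = 0.158), and in CD8+ cells -0.14 (adjusted p = 0.771), with overlapping libraries in both. The fit on the CD4+ libraries alone gave 0.53 with an adjusted p of 0.0366.

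Beside the rise of Zeb2, 12 markers of monocytes and macrophages summed to 1138 to 1353 TPM in WT and 4701 to 6496 TPM in KO CD4+ cells, and to 1021 to 1234 TPM and 3135 to 4378 TPM in CD4-CD8- cells. Of the 12, 10 were higher and 1 lower in KO CD4+ cells, and 7 higher and 1 lower in KO CD4-CD8- cells. Lyz2, which neutrophils and many myeloid cells express, made up most of the sum, with 5112 TPM in the mean of KO CD4+ cells against 869 TPM in WT. The macrophage genes Mertk and Cd163 were near 0, at 0.469 and 1.48 TPM in KO CD4+ cells, and Adgre1 had 157 TPM in KO and 222 TPM in WT. These genes were picked from the 12 after their values were seen, and 10 of the 12 were higher in KO CD4+ cells. A level near 0 for Mertk and Cd163 does not mean that they were lower in KO. The part of macrophages in the Zeb2 difference was not tested.

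Beside the falls of Irf4 and Zeb2 in CD8+ cells, the 8 cDC2 markers summed to 22.9 to 41.7 TPM in KO against 103 to 178 TPM in WT, and 6 of the 8 were lower in KO. Within cDC2 the same list had 4 lower and 2 higher in KO CD4+ cells. It had 5 lower and 2 higher in KO CD4-CD8- cells, so these markers also changed with genotype in cDC2 themselves. Sirpa, a cDC2 surface receptor, had 3.72 TPM in KO and 20.1 TPM in WT CD8+ cells, against 333 TPM in WT CD4+ cells. Within WT CD8+ cells replicate 2 had the least Irf4, Klf4 and Zeb2 in CPM and the lowest sum of cDC2 markers. It also had the lowest sums of B cell (10.5 TPM), plasmacytoid (181 TPM) and monocyte and macrophage markers (179 TPM). Its NK and T cell marker sums were the highest of the WT CD8+ libraries (74.7 and 46.1 TPM). Replicate 2 is 1 library, and in TPM replicate 1 had less Klf4 (5.28 against 5.54 TPM). Klf4 did not pass in KO against WT CD8+ cells (-0.14, adjusted p = 0.771). B cell markers were lower too, at 2.95 to 4.77 TPM against 10.5 to 15.4 TPM. The 7 markers of plasmacytoid dendritic cells, which also express Irf4 and Zeb2, summed to 109 to 144 TPM in KO against 181 to 233 TPM in WT, with 4 lower and 1 higher. The part of such cells in the Irf4 and Zeb2 differences was not tested.

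Relb was lower in KO and passed the test in all 3 populations. In CD4+ cells it fell from 518, 509.9 and 457 CPM to 200.4, 282 and 204 CPM (2.16-fold, log2 -1.11, SE 0.14, adjusted p = 7.16e-06). In CD4-CD8- cells it fell from 354, 395 and 335 CPM to 195, 213 and 173 CPM (1.86-fold, log2 -0.90, SE 0.14, adjusted p = 0.000133). In CD8+ cells it fell from 159.5, 162 and 172 CPM to 75.2, 82.3 and 58.1 CPM (2.29-fold, log2 -1.19, SE 0.14, adjusted p = 1.5e-05). Every KO library lay below every WT library of its population. The calls held in every alternative that was run, and no difference between the 3 changes passed the test (-0.22 to 0.30 on the log2 scale, SE 0.19, adjusted p = 0.372 to 0.823). KO CD4+ cells, at a mean of 229 CPM, were above WT CD8+ cells, at 164 CPM.

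Zbtb46, the zinc finger factor of committed cDC, changed in CD4+ cells. It fell there from 83, 87.7 and 85.3 CPM to 61.8, 52.9 and 58.1 CPM (1.48-fold, log2 -0.57, SE 0.07, adjusted p = 1.47e-05). In CD4-CD8- cells the libraries overlapped, at 65, 66.9 and 73.6 CPM (WT) and 65.5, 69.9 and 70.7 CPM (KO), and in CD8+ cells the log2 difference was 0.09 (SE 0.07, adjusted p = 0.454). Spi1, which encodes PU.1, did not pass in any population. Its log2 differences were -0.42, -0.31 and 0.03 (adjusted p = 0.0615, 0.195 and 0.942). The WT CD4+ libraries had 608, 662 and 491 CPM and the KO ones 384, 561 and 373 CPM, and KO replicate 2 overlapped the WT libraries. Without it the difference was -0.63 (adjusted p = 0.00628), and DESeq2 gave -0.42 with an adjusted p of 0.0301. In TPM the CD4+ libraries were separate, at 327, 329.8 and 338 TPM in WT and 268, 222 and 258 TPM in KO. The CD4+ fall passed in limma on log2(TPM + 1) (-0.42, adjusted p = 0.00534) and on TMM-scaled TPM (-0.26, adjusted p = 0.0132). With the length offset it also passed (-0.27, adjusted p = 0.0124).

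On the TPM as deposited the median gene was itself lower in KO, by up to 0.18 on the log2(TPM + 1) scale, and 2 values turned with it. Zbtb46 in CD4-CD8- cells became -0.31 (adjusted p = 0.0347) and Spi1 in CD8+ cells -0.33 (adjusted p = 0.0372). After scaling of the TPM by the trimmed mean of M-values they were -0.06 (adjusted p = 0.691) and -0.13 (adjusted p = 0.315).

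Whether the loss of ADAM10 acted differently in the 3 populations was tested directly, as a difference between KO changes. Between CD4+ and CD8+ cells this differed for 4 of the 10 genes, against 22.1% of all genes. Between CD4-CD8- and CD8+ cells it differed for 3, against 13.2%, and between the 2 cDC2 populations for 2, against 3.76%. Zeb2 had the largest difference, 3.32 (SE 0.35, adjusted p = 3.89e-06) between CD4+ and CD8+ cells and 2.86 (SE 0.34, adjusted p = 4.17e-05) between CD4-CD8- and CD8+ cells. For Irf4 these were 2.00 (SE 0.25, adjusted p = 2.08e-05) and 2.74 (SE 0.25, adjusted p = 2.85e-06). For Id2 they were -2.27 (SE 0.20, adjusted p = 5.23e-07) and -1.0 (SE 0.19, adjusted p = 0.00233). Id2 and Zbtb46 also changed differently in the 2 cDC2 populations, by -1.27 (SE 0.20, adjusted p = 0.00135) and -0.57 (SE 0.11, adjusted p = 0.00482). Id2 was lower in KO in both and Zbtb46 in CD4+ cells. On TPM the Zbtb46 difference was -0.34 (adjusted p = 0.341), and -0.46 after scaling (adjusted p = 0.0574). The Zbtb46 difference between CD4+ and CD8+ cells was -0.66 (SE 0.10, adjusted p = 0.00021).

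The same libraries give the distance between cDC2 and cDC1 in each genotype. In KO, 9 of the 10 genes differed between CD4+ and CD8+ cells, 5 higher and 4 lower in CD4+, against 50.8% of all genes, and 8 between CD4-CD8- and CD8+ cells, 4 in each direction, against 46.6%. Zeb2 was 3.05-fold higher in CD4+ than in CD8+ cells in WT and 30.5-fold higher in KO. Irf4 was 2.7-fold higher in WT and 10.8-fold in KO. Id2 was 2.76-fold lower in WT and 13.3-fold in KO. Zbtb46 was 1.14-fold lower in WT and 1.8-fold in KO. For these 4 genes the CD4+ and CD8+ groups lay further apart in KO, which is the difference tested above.

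For the other 6 genes the change of this distance did not pass the test. Irf8 was 18.7-fold lower in CD4+ than in CD8+ cells in WT and 15.2-fold in KO (difference 0.30, SE 0.20, adjusted p = 0.343), and Relb was 3.01-fold and 3.18-fold higher (difference 0.08, SE 0.19, adjusted p = 0.823). Klf4 was 3.36-fold and 5.4-fold higher (difference 0.69, SE 0.34, adjusted p = 0.173). Nfil3, which did not differ between WT populations, was 2.33-fold higher in CD4+ than in CD8+ KO cells (adjusted p = 0.00246), and the change of its distance, 0.96 with SE 0.41, had an adjusted p of 0.114. Against CD8+ cells, KO CD4-CD8- cells had 1.49-fold more Nfil3, with an adjusted p of 0.129 that became 0.000524 with the pairing.

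Between the 2 KO cDC2 populations 3 of the 10 genes differed, all lower in CD4+, against 7.95% of all genes. Irf8 was 2.72-fold lower (adjusted p = 1.3e-05), Id2 2.82-fold lower (adjusted p = 5.02e-06) and Zbtb46 1.19-fold lower (adjusted p = 0.0474). In WT the Id2 libraries of the 2 populations overlapped, at 149.7 to 198 CPM in CD4+ and 194 to 204 CPM in CD4-CD8- cells. The Zbtb46 call was lost without KO CD4+ replicate 2 (-0.19, adjusted p = 0.211) and with 4 other single libraries left out. It was also lost with no filter, on the TPM scales, with the length offset, with either block and from these libraries alone (adjusted p = 0.0505 to 0.147).

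**Figure D3:**
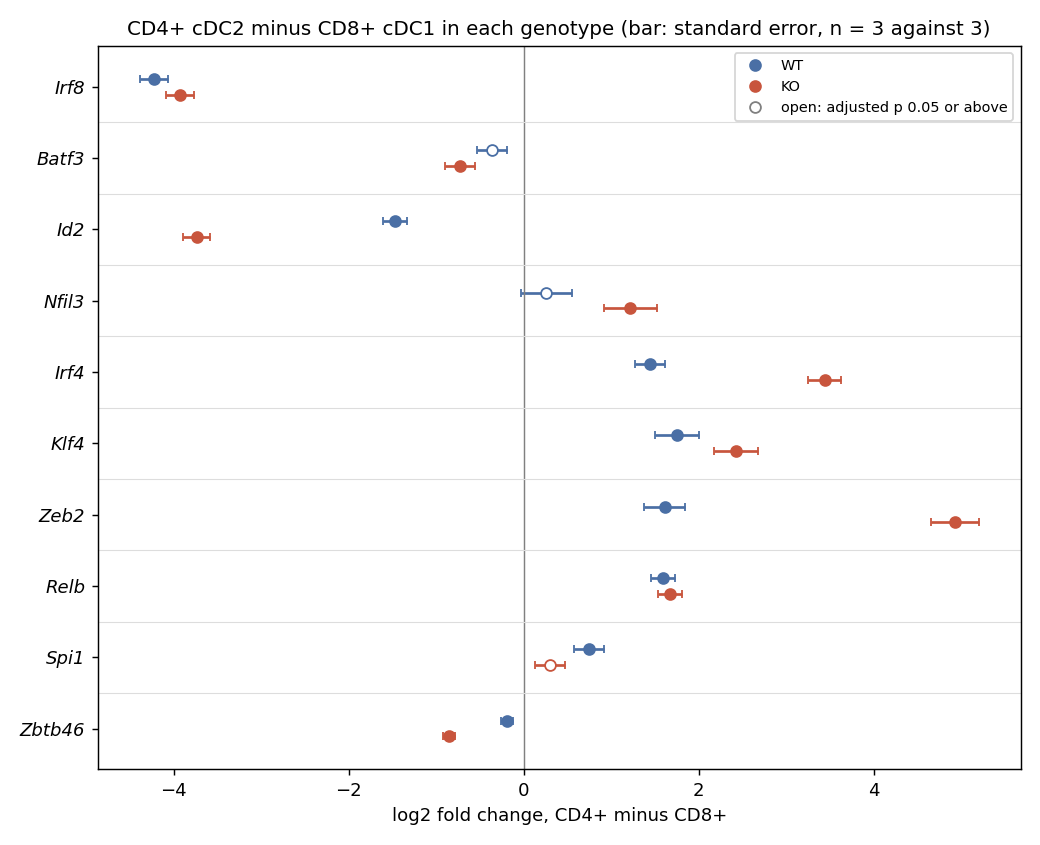
Log2 fold change between CD4+ cDC2 and CD8+ cDC1 for each gene in WT (blue) and KO (red) cells, with the standard error as bars (3 libraries against 3); filled points passed an adjusted p of 0.05. The KO point lies further from 0 than the WT point for Zeb2 (4.93 against 1.61), Irf4 (3.44 against 1.44), Id2 (-3.74 against -1.47) and Zbtb46 (-0.85 against -0.19).

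The relatives and partners of these factors were read from lists given by family. Their counts stand against the share of all genes tested, which was 18.5% higher and 16.6% lower in KO CD4+, 14.6% higher and 11.3% lower in KO CD4-CD8-, and 7.01% higher and 8.68% lower in KO CD8+ cells. The NF-kB list, with 12 genes beside Relb, had 2 higher and 4 lower in KO CD4+ cells, 3 higher and 1 lower in KO CD4-CD8- cells, and 0 higher and 7 lower in KO CD8+ cells, with median log2 changes of 0.02, 0.04 and -0.32. The kinase gene Map3k14, which encodes NIK of the non-canonical pathway, was lower in CD4+ (-0.93, adjusted p = 5.2e-06), CD4-CD8- (-0.57, adjusted p = 0.0011) and CD8+ cells (-0.34, adjusted p = 0.0491). Nfkb1, which encodes p50, was lower in CD4+ (-0.76, adjusted p = 0.000636) and CD8+ cells (-0.73, adjusted p = 0.0022). Nfkbia, the inhibitor IkB-alpha, went up in CD4+ (0.86, adjusted p = 7.71e-05) and CD4-CD8- cells (0.74, adjusted p = 0.000568), as did the lymphotoxin receptor gene Ltbr (0.29, adjusted p = 0.0145, and 0.44, adjusted p = 0.0012). Nfkbie was lower in CD4+ (-0.47, adjusted p = 0.00133) and CD8+ cells (-0.71, adjusted p = 0.000112), and Bcl3 in CD8+ cells (-0.96, adjusted p = 0.00443).

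**Figure D4:**
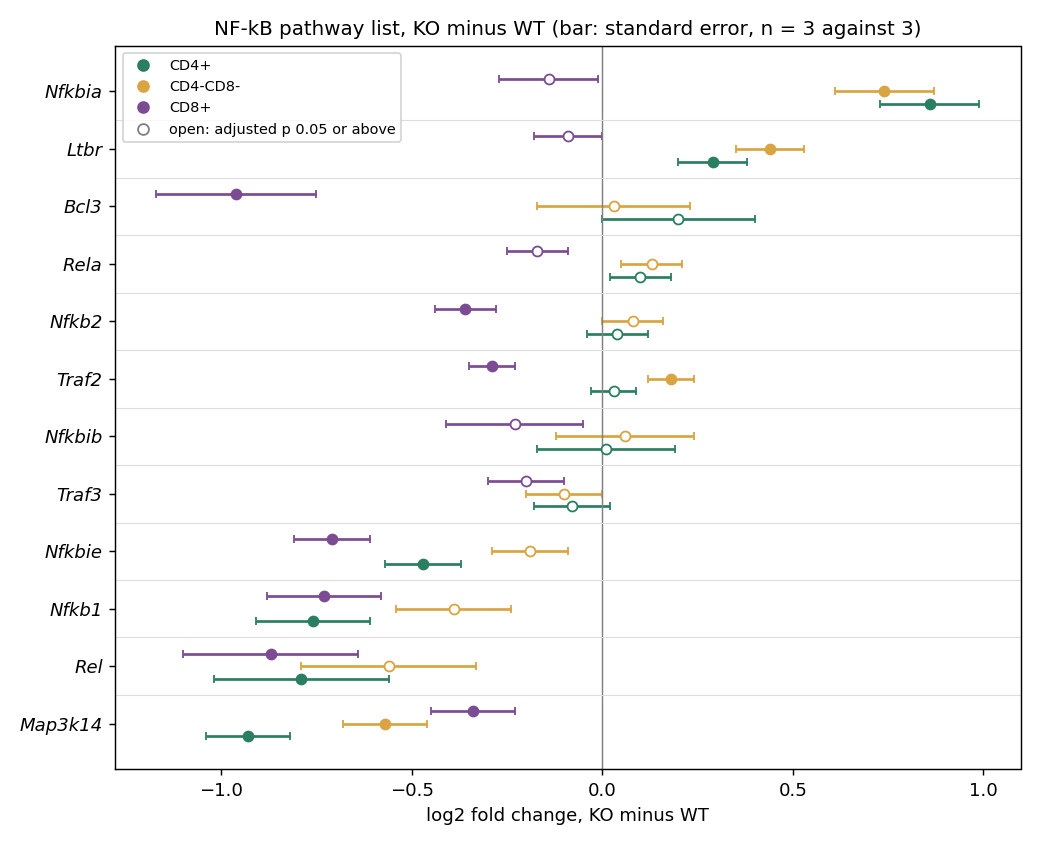
Log2 fold change in KO against WT cells for the 12 genes of the NF-kB list in the 3 populations, with the standard error as bars (3 libraries against 3); filled points passed an adjusted p of 0.05. In CD8+ cells 7 genes passed, all left of 0, while Nfkbia passed to the right of 0 in both cDC2 populations.

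The list of E proteins, which are the partners of ID2, and of the other ID inhibitors had 4 tested genes. In KO CD4+ cells, where Id2 was lower, 3 were higher and 0 lower. They were the E protein genes Tcf12 (0.53, adjusted p = 0.00337) and Tcf4, the E2-2 gene (0.57, adjusted p = 0.0442). The third was Id3 (1.19, adjusted p = 0.0219), which like Id2 encodes an inhibitor of E proteins. In KO CD8+ cells, where Id2 was higher, 0 were higher and 2 lower, Tcf4 (-1.11, adjusted p = 0.00163) and Tcf3 (-0.31, adjusted p = 0.0341). None of the 4 passed in CD4-CD8- cells in edgeR, where 1 had an unadjusted p under 0.05, and DESeq2 called Tcf4 there. Spib, an ETS factor related to PU.1, is like Tcf4 on the plasmacytoid marker list. It was higher in KO CD4+ (1.31, adjusted p = 4.14e-05) and CD4-CD8- cells (1.11, adjusted p = 0.000355) and lower in KO CD8+ cells (-1.82, adjusted p = 9.02e-06). Of the 7 genes on that marker list, 4 were higher and 0 lower in both KO cDC2 populations. In KO CD8+ cells 1 was higher and 4 were lower. Siglech, a single surface marker of that list, had 17.7 TPM in WT and 17 TPM in KO CD4+ cells, and 18.1 TPM and 6.92 TPM in CD8+ cells.

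Of the 8 ETS genes beside Spi1, 3 were higher and 1 lower in KO CD4+, 2 higher and 1 lower in KO CD4-CD8-, and 0 higher and 3 lower in KO CD8+ cells. Beside Spib these included Elf4 (-0.47) and Ets2 (0.99) in CD4+, Ets1 (-2.49) and Etv6 (0.31) in CD4-CD8-, and Etv3 (-0.71) and Ets1 (-1.83) in CD8+ cells. Ets1 is abundant in T and NK cells, whose markers were lower in KO CD4-CD8- cells. In KO CD8+ cells 4 of 8 NK cell markers and 1 of 8 T cell markers were lower, and 0 were higher. The part of these cells in the Ets1 differences was not tested. Of the IRF family beside Irf4 and Irf8, Irf2 was higher (0.32) and Irf3 lower (-0.25) in KO CD4+ cells. Of the 7 genes on that list, none passed in CD4-CD8- (2 at an unadjusted p under 0.05 in edgeR, 0 called by DESeq2) and 2 were higher in CD8+ cells (Irf9 0.35, Irf5 0.28). Of 9 tested genes of the BATF and AP-1 list, 2 were higher in KO CD4+ cells, Batf2 (2.51) and Fos (0.66), and none passed in CD4-CD8- or CD8+ cells (2 and 1 at an unadjusted p under 0.05 in edgeR, 0 called by DESeq2).

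The KLF and ZEB list of 6 genes had 1 higher and 1 lower in each population. Klf10 was higher in KO CD4+ (0.57), CD4-CD8- (0.40) and CD8+ cells (0.96). Zeb1, the relative of Zeb2, was lower in KO CD4+ (-0.52, adjusted p = 0.00426) and CD4-CD8- cells (-0.54, adjusted p = 0.00506), where Zeb2 was higher, and Klf3 was lower in CD8+ cells (-0.55). In the C/EBP and PAR bZIP list, which includes relatives of Nfil3, 3 of 6 tested genes were higher and 2 lower in KO CD4+ cells, 1 higher and 2 lower in CD4-CD8- cells and none in CD8+ cells (0 at an unadjusted p under 0.05 in edgeR, 0 called by DESeq2). Cebpa, a factor of myeloid progenitors, was higher in CD4+ (1.39) and CD4-CD8- cells (0.77), and Tef (-2.22 and -2.24) and Dbp (-1.20 and -0.81) were lower.

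Of 20 other transcription factors with roles in dendritic cells, 5 were higher and 10 lower in KO CD4+, 3 higher and 7 lower in KO CD4-CD8-, and 2 higher and 8 lower in KO CD8+ cells, to be read against the same shares over all genes. Ahr, the aryl hydrocarbon receptor, was lower in CD4+ (-2.27, adjusted p = 2.73e-08), CD4-CD8- (-1.55, adjusted p = 4.77e-06) and CD8+ cells (-0.87, adjusted p = 0.00104), and Ikzf1, the Ikaros gene, by -0.80, -0.70 and -0.54. Rbpj, through which Notch acts on DNA, was higher in all 3, by 0.69, 0.94 and 0.68 (adjusted p = 0.000557, 6.3e-05 and 0.00163), and so was Myc, by 0.76, 0.44 and 0.94. Stat5a was higher in CD4+ (0.64) and CD4-CD8- cells (0.33) and lower in CD8+ cells (-0.33). Bcl11a was lower in CD4+ (-0.90) and CD8+ cells (-1.25, adjusted p = 1.1e-06), and Runx1 in CD8+ cells (-0.80, adjusted p = 2.69e-05).

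The transcripts behind the gene sums differed in how steady they were. Irf8-201 held 92 to 96.7% of the Irf8 counts in every library. Batf3-201, the protein-coding model, held 83.8 to 88.6% of the Batf3 counts in WT CD4+ libraries and 63.4 to 81% in KO CD4+ libraries. Over the same libraries Batf3-202, a model with a retained intron, went from 0 to 0.508% in WT to 0.906 to 18.1% in KO, and it held 23.7 to 24.7% in WT CD8+ libraries. The lowest KO CD4+ share, in replicate 3, was close to WT. In CD4-CD8- libraries Batf3-202 held 0.632 to 3.02% in WT and 15 to 28.4% in KO, without overlap. KO CD8+ libraries had 11 to 38.6%, which overlapped WT. These shares were not tested. Relb-209, a short coding model, held 4.89 to 6.56% of the Relb counts in WT CD4+ and 1.41 to 2.95% in KO CD4+ libraries, which did not overlap.

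The genes whose log2(CPM + 1) followed each factor most closely over the 18 libraries were named from 9804 genes with a mean of at least 5 CPM. These correlations rest on 6 groups that share populations and genotypes and are a description. Irf4 was matched by Rgl1 (r = 0.99) and Gpr183 (0.98), an oxysterol receptor that positions CD4+ cDC2 in the spleen, and Irf8 by Fzd1 (1.00) and Clec9a (0.99), a cDC1 receptor for dead cells. Zeb2 was matched by Cybb (1.00), a subunit of the phagocyte oxidase, and Lrp1 (0.99), a scavenging receptor. Id2 was matched by Agpat3 (0.99) and Msh6 (0.98), Klf4 by Il6ra and Ptchd1 (both 0.98), and Relb by Rras2 and Avpi1 (both 0.98).

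The remaining factors had Gpr157 and Slc35c2 (both 0.97) for Zbtb46, Snx20 (0.95) and Nr2f6 (0.94) for Spi1, Taf6l and Cdk7 (both 0.94) for Batf3, and Grasp (0.89) and Zbtb10 (0.88) for Nfil3. Among the 10 factors themselves, Zeb2 and Id2 ran against each other (r = -0.92 over 18 libraries), as did Irf4 and Irf8 (-0.83), while Zeb2 and Klf4 (0.93), Zeb2 and Irf4 (0.91) and Id2 and Zbtb46 (0.90) ran together. Spi1 followed Relb most closely (0.80).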

How the data were processed

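RNA was sequenced from sorted splenic cDC with single-end reads, 3 libraries in each of 6 groups. Per the submitters' processing notes, FastQC 0.11.8, Salmon 0.14.1 and genome build GRCm38 were used. The deposited tables give, per transcript, the authors' estimated counts and the authors' TPM, abundance per transcript length. Transcripts were summed to 24614 genes; transcripts that could be assigned to no gene, at most 0.16% of a library's counts, were left out. Estimated counts were rounded and fitted for all 18 libraries together with edgeR 4.0.16 (R 4.3.3): TMM scaling, filtering by expression to 13381 genes, the quasi-likelihood F test (two-sided) with 12 residual degrees of freedom, and Benjamini-Hochberg adjustment over all 13381 genes. All adjusted p-values are from that fit unless another is named, genes with an adjusted p under 0.05 count as called, and the SE was derived from the F statistic. The procedure was tested on simulated data. Values in TPM are relative to each library's total, so a few abundant genes can shift all others.

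The alternatives were DESeq2 1.42.0, upper-quartile scaling, no filter, limma 3.58.1 on log2(TPM + 1) and log2(TPM + 0.1), a length offset, a replicate block, the compared libraries alone and each library left out; limma on TMM-scaled TPM and a block by genotype and number were added after seeing the data. Same-numbered libraries of one genotype deviated together over genes (lowest correlation 0.13 to 0.29 in the 5 pairs of groups taken as paired), except KO CD4+ with KO CD4-CD8- (lowest 0.07), and WT and KO libraries did not (lowest -0.11, 0.00 and -0.08). No library was a copy of another.

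The 10 members and the gene lists were chosen with earlier results of these data known. Beside the members, the text names for each member the 2 genes with the highest correlation, up to 3 called genes of each list per KO comparison, with their values in the other populations, and Adam10; single marker genes and transcripts were chosen after their values were seen. A single gene of these lists, and a count that includes it, are not reported here.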

Additional observations from a re-analysis of the deposited data

Results flagged for a closer look

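A KO effect that differed between populations, by the interaction test in edgeR, is set out here for a closer look. Between CD4+ and CD8+ cells the difference of the KO effect was 3.32 for Zeb2 (adjusted p = 3.89e-06), 2.00 for Irf4 (adjusted p = 2.08e-05), -2.27 for Id2 (adjusted p = 5.23e-07) and -0.66 for Zbtb46 (adjusted p = 0.00021). Between CD4-CD8- and CD8+ cells it was 2.86 for Zeb2 (adjusted p = 4.17e-05), 2.74 for Irf4 (adjusted p = 2.85e-06) and -1.0 for Id2 (adjusted p = 0.00233). Between CD4+ and CD4-CD8- cells it was -1.27 for Id2 (adjusted p = 0.00135) and -0.57 for Zbtb46 (adjusted p = 0.00482). The comparisons share libraries and are not independent. Groups of 3 libraries were too small for a formal test of outlying libraries, and the fits with 1 library left out are given below.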

How the results depend on the processing

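For the 10 genes, 995 of the values under other settings and 846 with 1 library left out kept their direction and their side of the threshold, while 48 and 22 lost the call, 53 and 6 gained it, and 40 and 26 moved. Direction turned, past the threshold, for Spi1 in CD8+ cells (-0.33 on both log2(TPM + 1) and log2(TPM + 0.1)) and Zbtb46 in CD4-CD8- cells (-0.31 and -0.34), where the median gene on log2(TPM + 1) was at -0.13 and -0.18; after TMM scaling of the TPM they were -0.13 and -0.06. The number of the 10 genes called in CD4+ KO against WT was 9 with a replicate block by number and 5 without. The numbers did not pair WT with KO libraries, and not every library correlated best with its own number. Between WT CD4+ and CD4-CD8- cells 2 genes were called with TPM + 1, TPM + 0.1 and the length offset (4 in the edgeR fit), and in the interaction of CD4+ with CD4-CD8- cells 1 with TPM + 1, TPM + 0.1 and TMM-scaled TPM (2 in the edgeR fit). With 1 library left out, the genes called were 5 to 6 in CD4+, 3 to 4 in CD4-CD8- and 4 in CD8+ KO against WT, and 2 to 4 between the WT cDC2 populations, with 2 without WT CD4+ replicate 1 or WT CD4- replicate 1.

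Over all genes, calls in KO against WT were 4692, 3471 and 2099 in CD4+, CD4-CD8- and CD8+ cells. They were 3125 (CD4+) and 1320 (CD8+) on TMM-scaled TPM, and 3095, 2184 and 1397 with the length offset. On log2(TPM + 1), 1132 were higher and 2254 lower in CD4+ (2476 and 2216 in the edgeR fit), 605 and 2975 in CD4-CD8- (1953 and 1518) and 264 and 1364 in CD8+ cells (938 and 1161). Between populations on that scale they were 3259 and 1223 for WT CD4-CD8- against CD8+ (2931 and 2807), 240 and 1387 for WT CD4+ against CD4-CD8- (953 and 1288) and 2748 and 1510 for KO CD4-CD8- against CD8+ (3253 and 2987), and in the interactions 503 and 664 for CD4-CD8- with CD8+ (1102 and 659) and 346 and 42 for CD4+ with CD4-CD8- (332 and 171). Counts below the edgeR fit by over 1.5 times also came from TMM-scaled TPM and the offset between WT cDC2 populations (1321 and 1259, against 2241). Between KO cDC2 populations 1064 genes were called, and 527, 546 and 593 with TPM + 1, TPM + 0.1 and TMM-scaled TPM, 542 with the offset, 667 from these libraries alone, 664 without KO CD4+ replicate 2 and 663 without KO CD4- replicate 3. The interaction of CD4+ with CD8+ cells had 2962, and 1630, 1634, 1923 and 1800 with the same 3 TPM scales and the offset. That of CD4-CD8- with CD8+ cells had 1761, and 1167, 971 and 903 with TPM + 1, TPM + 0.1 and the offset. That of CD4+ with CD4-CD8- cells had 503, and 252, 332 and 192 with TPM + 0.1, TMM-scaled TPM and the offset, and 306, 318, 312 and 330 without WT CD4+ replicate 2, KO CD4+ replicate 3, WT CD4- replicate 1 and KO CD4- replicate 2. The causes were not tested. Irf4 and Zeb2 rest on fewer counts in KO CD8+ cells than in the other groups, at 8.22 and 3.72 CPM in their lowest libraries.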
